A study of Homo sapiens with 3 samples.

Results

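The genes described here are 60 genes of mitosis, which encode kinetochore and centromere proteins, the spindle checkpoint, kinesins, condensin, the mitotic cyclins and kinases, and the proteins of spindle assembly and cytokinesis. Members were taken by name, as every non-control probe whose gene name in the array files was on the list. All 60 were found, with 83 probes, among the 22620 gene names that had a probe well above background on at least 1 array, and 59 of the 60 were well above background on all 3 arrays.

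Gene expression was measured in HCT116 cells, a human colorectal carcinoma line, on 1-colour Agilent arrays with 1 array per condition. SMARCA4-KD1 and SMARCA4-KD2 cells were transfected with small interfering RNA against SMARCA4, the motor ATPase of the SWI/SNF chromatin remodelers, and NC cells with a scrambled negative control. SMARCA4 appears in the sample titles and the siRNA protocol, whereas the treatment field of the same records names PRMT1, so the knockdown number was taken from that field and the target was read from the arrays. The sources used here do not say which siRNA went to which array. Transfected cells of 1 culture stand for each condition, so there is no replicate check on any difference below and the precision is limited by the number of arrays. Values of single arrays are given in the order SMARCA4-KD1, SMARCA4-KD2, NC, and fold changes against NC in the order SMARCA4-KD1, SMARCA4-KD2.

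SMARCA4 had a processed intensity of 3960, 4129 and 14026. After scaling, these were 26.6% and 28.8% of NC. PRMT1 had 9801, 10147 and 7683, or log2 fold changes of 0.27 and 0.37. SMARCA4 was thus low on both knockdown arrays and PRMT1 was not.

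In mitosis, cyclin-dependent kinase 1 with its B cyclins drives entry, condensin folds the chromosomes, and microtubules of the spindle attach to kinetochores built on the centromere. The spindle checkpoint holds back the anaphase promoting complex until all kinetochores are attached, after which separase opens cohesin and the cell divides by cytokinesis. Transcripts of many of these genes, though not of all, peak in G2 and M phase, largely through the MuvB complex with MYBL2 and FOXM1. In a growing tumour line the level of such transcripts is known to depend on the share of cells in those phases. In such bulk RNA, fewer cells in mitosis and less RNA per cell cannot be told apart.

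Levels are log2 intensities relative to the array's own 75th percentile (intensities of 237, 228 and 223). A value not well above background was raised to the lowest one that was, and the brightest probe stood for each gene. Probes well above background numbered 26619 to 27536 per array, 0 spots were saturated, and all 8 epithelial markers examined were well above background on every array. Of the other markers measured, 1 of 6 for fibroblasts, 2 of 3 for leukocytes and 2 of 4 for endothelium passed, with intensities summed over each list of 371 to 497, 111 to 146 and 76.2 to 87.3, against 450083 to 461276 for the epithelial list. Both knockdown arrays lay on the same slide and NC alone on another, so slide and knockdown cannot be told apart. The 8 spike-in controls, RNAs added in fixed amounts, differed from NC by -0.30 ± 0.09 and -0.32 ± 0.10 on the same log2 scale (SD, n = 8 controls).

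Most mitosis genes were lower in both SMARCA4 knockdown arrays than in NC. Their log2 fold changes had medians of -0.73 and -0.69, and of -0.68 in the mean of both, which is 1.6-fold lower. Over all genes the medians were -0.0022, 0.02 and 0.03, and over the 4182 genes whose NC level lay in the middle range of the mitosis genes they were 0.05, 0.04 and 0.05. In SMARCA4-KD1, 38 of the 60 mitosis genes were at least 1.5-fold lower, where 12.2% of all genes were, and 0 were at least 1.5-fold higher, where 11.2% were. In SMARCA4-KD2, 36 were at least 1.5-fold lower against 9.77% of all genes, and 0 were higher against 10.1%. At 2-fold, 15 were lower in SMARCA4-KD1 (3.63% of all genes) and 14 in SMARCA4-KD2 (2.6%). Both comparisons use the same NC array and are set side by side for that reason. For the mean of both knockdown arrays, 38 were at least 1.5-fold lower (10.4% of all genes), 14 at least 2-fold lower (2.9%) and 0 at least 1.5-fold higher (9.94%).

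**Figure D1:**
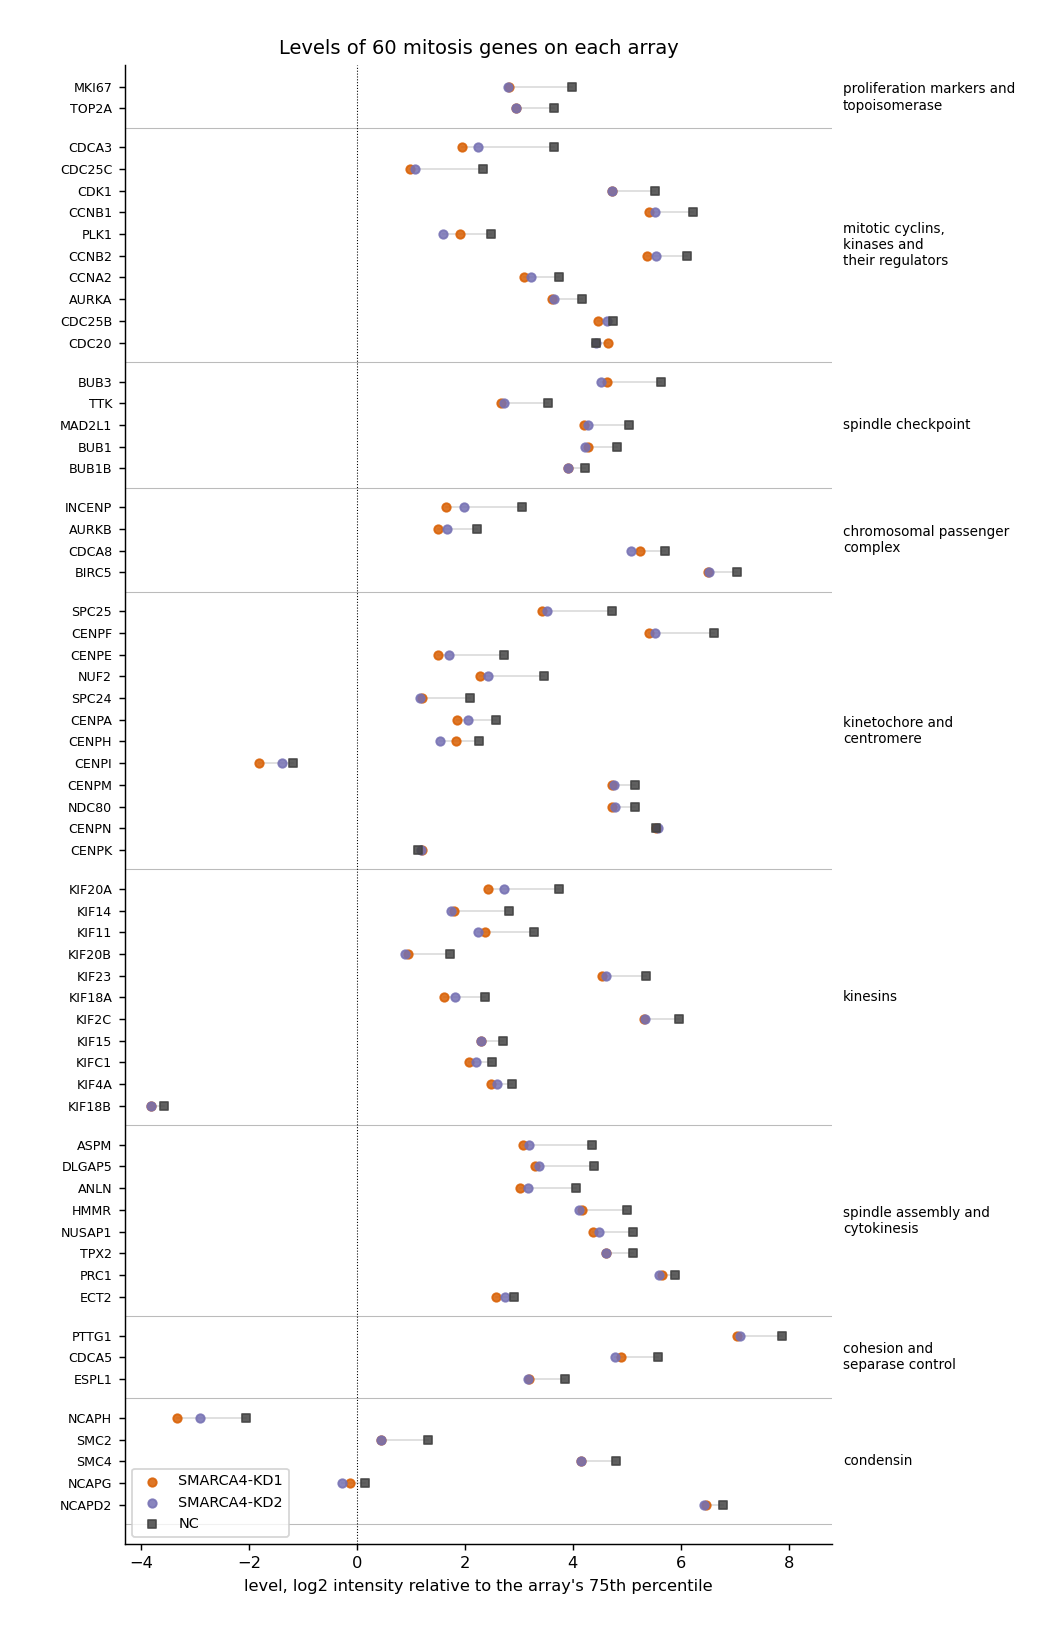
Level of each of the 60 mitosis genes on the SMARCA4-KD1 (orange), SMARCA4-KD2 (purple) and NC (black squares) arrays, as log2 intensity relative to the 75th percentile of the array, 1 array per condition and therefore no error bars. The NC square lies to the right of both knockdown points for nearly all genes, with CDC20, CENPN and CENPK as exceptions.

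The size of the difference depended on the scale. Scaled to the 8 spike-in controls, a setting chosen after the data were seen, all genes had median changes of 0.30 and 0.34, with 3.99% of them at least 1.5-fold lower and 26.8% higher in the mean, in place of 10.4% and 9.94%. The mitosis genes then had medians of -0.43 and -0.37, and 17 and 16 of them were at least 1.5-fold lower. Relative to the median of all genes the counts were 38 and 37 on this scale, as they were on the 75th percentile scale. Both scales subtract 1 value per array, so this equality was fixed in advance and is no check on the result.

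A limma fit of both knockdown arrays against NC, with 1 residual degree of freedom and the NC array taken to vary as the knockdown arrays do, gave 52 mitosis genes lower at an unadjusted p under 0.05, where 14.5% of all genes were lower, and 0 higher, where 16.2% were. The mitosis genes not past that threshold were CDC20, CDC25B, CENPI, CENPK, CENPN, ECT2, KIF18B and NCAPG. After Benjamini-Hochberg adjustment over all genes, limma called 0 of the 60 and 0% of all genes, with a smallest adjusted p of 0.0939. This count changed with most alternatives. Quantile normalization, normexp background correction, no floor and the series-level table called 42 to 43 of the 60 lower, where 11.7% to 16% of all genes were called in either direction, and a filter on all arrays called 48 of 59, where 26.5% were. Without a filter on dim probes 53 were called, where 66% of all genes were. Scaled to the spike-in controls, 23 were called, where 23.5% of all genes were.

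The 2 general markers of dividing cells were both lower. MKI67, whose product Ki-67 coats mitotic chromosomes and is the standard stain for proliferating cells, had intensities of 1678, 1593 and 3517, with log2 fold changes of -1.15 and -1.18. TOP2A, the topoisomerase that untangles sister chromatids, had 1819, 1761 and 2801, with -0.71 and -0.70. In both genes the knockdown arrays lay close together and apart from NC.

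Among the 10 mitotic cyclins, kinases and regulators, 6 and 5 were at least 1.5-fold lower, where 12.2% and 9.77% of all genes were. These shares of all genes also stand beside the 1.5-fold counts of the sub-functions below. The median mean change of the 10 was -0.70. CDCA3, which helps degrade the mitosis inhibitor WEE1, was the lowest of all 60 genes in the mean, with intensities of 907, 1082 and 2820. It was 3.3-fold and 2.67-fold lower. CDC25C, the phosphatase that switches on CDK1, had intensities of 469, 481 and 1129, and was 2.55-fold and 2.4-fold lower. CDK1 itself, the kinase of mitotic entry, was read from 9, 9 and 10 spots of its probe and had 6227, 6066 and 10291, with log2 fold changes of -0.81 and -0.79. A second CDK1 probe, dim and well above background on 2 arrays, had intensities of 19.8, 15.5 and 52.3 and changes of -1.48 and -1.79. Its cyclins followed at -0.82 and -0.69 for CCNB1, -0.74 and -0.58 for CCNB2, and -0.66 and -0.53 for CCNA2. The kinases PLK1, which acts in centrosome maturation and cytokinesis, and AURKA, which builds the spindle poles, had -0.58 and -0.90, and -0.55 and -0.52. CDC25B, a phosphatase of the same family as CDC25C, had -0.27 and -0.11. CDC20, which activates the anaphase promoting complex, stood apart with intensities of 5931, 4940 and 4800 and log2 fold changes of 0.22 and 0.01, the highest mean change of the 60.

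All 5 spindle checkpoint genes on the list were lower than NC in each knockdown, with a median mean change of -0.79. At 1.5-fold, 3 and 4 of them were lower. TTK, the kinase that starts the checkpoint signal, had intensities of 1498, 1507 and 2595, and log2 fold changes of -0.88 and -0.82. MAD2L1, which binds and holds CDC20, had 4397, 4429 and 7347, with -0.82 and -0.76. BUB1 and BUB1B, also of the checkpoint, had -0.53 and -0.59, and -0.32 and -0.32.

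BUB3, which brings BUB1 to the kinetochore, was the lowest checkpoint gene by its brightest probe and, of the 16 genes with several probes well above background on all arrays, the only one whose probes differed by more than 1.5-fold. The brightest probe (hg19 chr10:124924177-124924236) had intensities of 5842, 5271 and 11120 and log2 fold changes of -1.01 and -1.11. The other probe (hg19 chr10:124917262-124917321), annotated in the array files to another RefSeq transcript of BUB3, had 6921, 5903 and 6577 and changes of -0.01 and -0.19. The lower level of BUB3 was therefore seen by 1 of its probes only.

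The chromosomal passenger complex corrects faulty attachments and guides cytokinesis, and its 4 genes had a median mean change of -0.59, with 2 at least 1.5-fold lower in each knockdown. INCENP, its scaffold, was read from 10 spots on each array and had intensities of 744, 902 and 1863. It was 2.66-fold and 2.11-fold lower. The kinase subunit AURKB had log2 fold changes of -0.73 and -0.56, and CDCA8 (borealin) had -0.47 and -0.62. BIRC5 (survivin), read from 9, 9 and 10 spots, had 21473, 20958 and 29564 and changes of -0.55 and -0.53. SDs over the repeated spots of the 6 mitosis genes printed several times on the array were 0.01 to 0.05 on the log2 scale, below each of these differences, though spots of 1 array share its RNA and are no replicates of the condition.

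The 12 kinetochore and centromere genes were split. At least 1.5-fold lower were 7 and 6 of them, with a median mean change of -0.61. SPC25, NUF2, SPC24 and NDC80 form the NDC80 complex, the main microtubule binder of the kinetochore. SPC25 had intensities of 2545, 2610 and 5939 and was 2.47-fold and 2.33-fold lower. NUF2 had 1157, 1231 and 2468 and was 2.26-fold and 2.05-fold lower. SPC24 had 544, 513 and 959 and was 1.87-fold and 1.91-fold lower, and because the study picked SPC24 as a common target from these arrays, its direction is not independent evidence. NDC80 had 6299, 6257 and 7898 with log2 fold changes of -0.41 and -0.37, so that the subunits of this complex differed in how far below NC they lay.

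CENPF and CENPE, both large proteins of the outer kinetochore and CENPE a kinesin motor, were more than 2-fold lower. CENPF had intensities of 10091, 10470 and 21888 and log2 fold changes of -1.20 and -1.10. CENPE, read from 9, 10 and 10 spots, had 667, 749 and 1475 and changes of -1.23 and -1.01. CENPA, the histone H3 variant that marks the centromere, had 853, 951 and 1336 with -0.73 and -0.52. The remaining 5 genes belong to the inner kinetochore complex that sits on that variant, and they ranged widely. CENPH had -0.44 and -0.73, CENPI -0.64 and -0.20, and CENPM -0.43 and -0.40. CENPN had intensities of 10994, 10886 and 10449 and changes of -0.01 and 0.03, and CENPK had 545, 523 and 489 and changes of 0.07 and 0.06. CENPN and CENPK thus lay within 0.1 of NC on the log2 scale, while SPC25, CENPF, CENPE and NUF2 were all at least 2-fold lower in the mean.

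Kinesins are microtubule motors that push the spindle poles apart, align chromosomes and organise the midzone. All 11 were lower than NC in each knockdown, 7 and 6 of them at least 1.5-fold, with a median mean change of -0.66. KIF20A, a midzone kinesin of cytokinesis, had intensities of 1271, 1519 and 2996 and was 2.5-fold and 2.02-fold lower. KIF14, also of cytokinesis, had 827, 766 and 1571 and was 2.01-fold and 2.1-fold lower. KIF11 (Eg5), which drives spindle bipolarity, had 1224, 1084 and 2183 and log2 fold changes of -0.92 and -1.04. The midzone motors KIF20B and KIF23 had -0.77 and -0.84, and -0.81 and -0.75. KIF18A, which dampens chromosome oscillation, had -0.77 and -0.55, and the depolymerase KIF2C had -0.65 and -0.64. KIF15, KIFC1 and KIF4A had mean changes of -0.41, -0.36 and -0.32, all under 1.5-fold in both knockdowns. KIF18B was well above background on the NC array alone, with intensities of 16.3, 13.4 and 18.7, so that NC was at least 1.17-fold and 1.18-fold higher than the knockdowns. Leaving KIF18B out, the medians of the other 59 mitosis genes were -0.73, -0.69 and -0.68.

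Of the 8 genes of spindle assembly and cytokinesis, 5 were at least 1.5-fold lower in each knockdown, and the median mean change was -0.77. ASPM, which acts at the spindle poles, had intensities of 2008, 2081 and 4574 and was 2.41-fold and 2.25-fold lower. DLGAP5 (HURP), which stabilises microtubules near chromosomes, had 2341, 2362 and 4716 and was 2.14-fold and 2.04-fold lower. ANLN, the scaffold of the cleavage furrow, had log2 fold changes of -1.05 and -0.90. The microtubule-associated proteins HMMR, NUSAP1 and TPX2 had mean changes of -0.86, -0.68 and -0.50. PRC1, which bundles the midzone, and ECT2, which activates RHOA at the furrow, had the smallest changes of the group, -0.25 and -0.30, and -0.33 and -0.16.

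The 3 genes that control cohesion were all at least 1.5-fold lower in each knockdown. PTTG1 (securin), the inhibitor of separase, had intensities of 31147, 31435 and 52639 and log2 fold changes of -0.84 and -0.78. ESPL1, separase itself, had 2153, 2066 and 3249 and changes of -0.68 and -0.69. CDCA5 (sororin), which protects cohesin, had 7021, 6257 and 10657 and changes of -0.69 and -0.80. The inhibitor, the enzyme and the protector thus lay between -0.68 and -0.81 in the mean.

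All 5 condensin genes were lower than NC in each knockdown, and 3 were at least 1.5-fold lower in each, with a median mean change of -0.65. The ATPase subunits SMC2 and SMC4 had log2 fold changes of -0.86 and -0.86, and of -0.65 and -0.65. SMC2 had intensities of 324, 313 and 554, and SMC4 had 4191, 4051 and 6215. NCAPD2 and NCAPG, regulatory subunits of condensin I, had mean changes of -0.32 and -0.35. NCAPH, the subunit that links both ATPases, had the lowest change of this group, -1.28 and -0.85, but at intensities of only 23.4, 30.4 and 53.6. Normexp background correction replaces the software's background subtraction and here adds an offset of 50 to every probe. With it, the median of the condensin genes was -0.42 in place of -0.65.

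**Figure D2:**
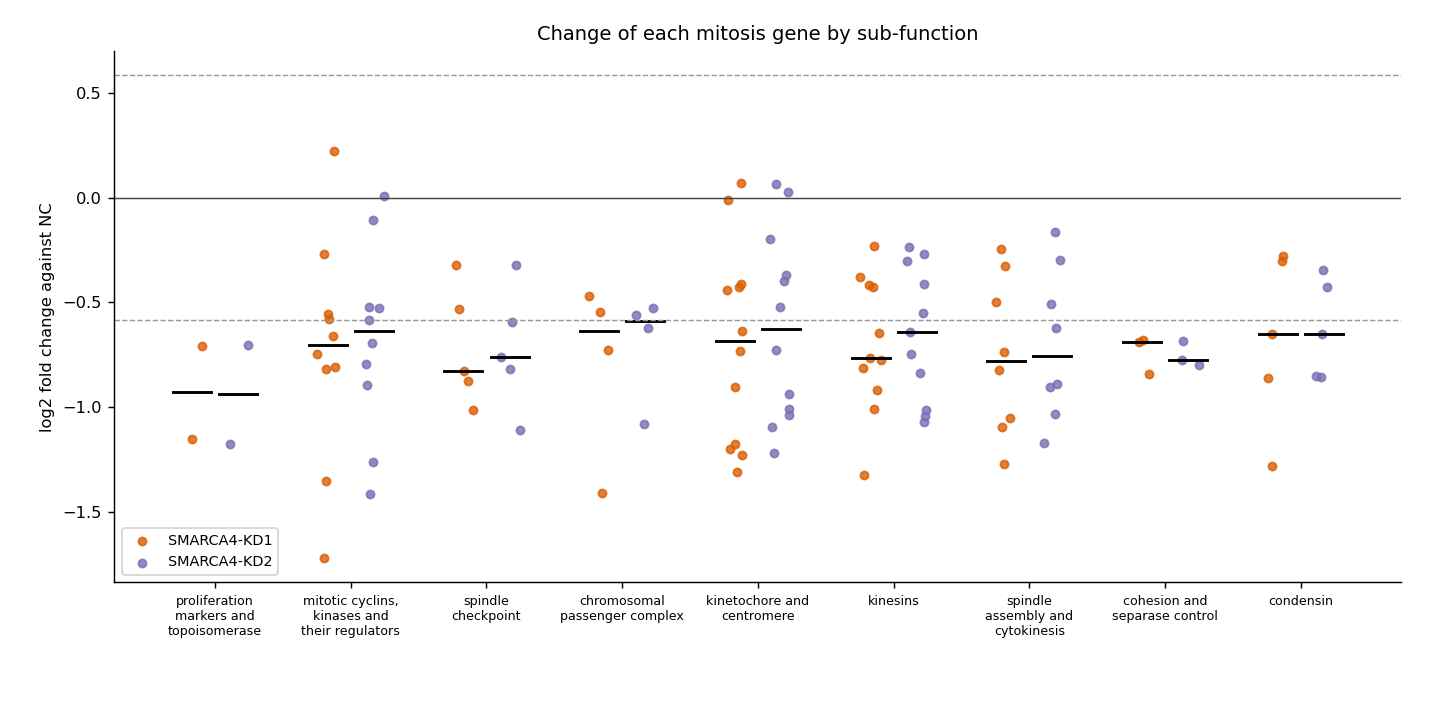
Log2 fold change against NC of each mitosis gene in SMARCA4-KD1 (orange) and SMARCA4-KD2 (purple) by sub-function, with black bars at the medians, the line at 0 for NC and dashed lines at 1.5-fold, from 1 array per condition. Every sub-function has its medians below 0, and the points of sub-functions overlap.

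The sub-functions differed little from each other. Their median mean changes ran from -0.59 in the chromosomal passenger complex to -0.93 in the 2 general markers, while single genes within the kinetochore group ran from -1.26 to 0.07 and those among the cyclins, kinases and regulators from -1.57 to 0.12. With 2 to 12 genes in each and 1 array per condition, no order of the sub-functions could be tested.

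SMARCA4-KD1 and SMARCA4-KD2 were close to each other in these genes. By the brightest probe, none (0 of 60) differed by 1.5-fold between the knockdowns, where 3.53% of all genes were at least 1.5-fold lower in SMARCA4-KD1 and 3.06% higher. Other probes of CENPM and KIF20B, well above background on all arrays, did differ by more than 1.5-fold. The CENPM probe, dim at intensities of 30.4, 56.3 and 41.5, had changes of -0.53 and 0.41. That of KIF20B had -0.26 and -0.90. The SD of the log2 difference between both knockdown arrays was 0.15 over the mitosis genes and 0.25 over all 19497 genes well above background on all arrays. Those genes include many dimmer ones. Over the 4182 genes with an NC level in the middle range of the mitosis genes, the quartiles of this difference were -0.09 and 0.09. They were -0.13 and 0.03 over the mitosis genes, so the closeness was not particular to them. By the brightest probe, CENPI (-0.44), NCAPH (-0.43) and INCENP (-0.33) had the largest differences, each lower in SMARCA4-KD1. CENPI and NCAPH were dim, CENPI with intensities of 67.1, 87.8 and 98.4. The difference in CENPI came from 1 of its 3 probes of similar brightness, as the others had changes of -0.70 and -0.67, and of -0.95 and -0.87, close together in both knockdowns. The extraction software's own error of a log2 fold change against NC had a lowest value of 0.20, a median of 0.20 and a highest of 0.50 over the mitosis genes. It was nearly constant in all but the dimmest of them. It does not cover the cultures and was not computed for differences between the knockdowns.

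Other probes gave a second reading for part of the list. Of the 60 genes, 43 had 1 passing probe, and 16 had several that were well above background on all arrays. The 20 probes besides the brightest had a median mean change of -0.52, and 18 of them were lower than NC and 9 at least 1.5-fold lower. By their brightest probe, 10.4% of all genes were at least 1.5-fold lower in the mean, and no share was computed over other probes. Those of ASPM, CENPF, KIF23, KIF4A, NCAPD2, SMC4 and SPC24 lay within 0.1 of the brightest probe, and those of CCNB1, PLK1 and SMC2 were 0.42 to 0.47 higher. CENPI went the other way, with mean changes of -0.69 and -0.91 by its other probes, both at least 1.5-fold lower, against -0.42 by the brightest. Averaging over all passing probes moved the median of the checkpoint genes from -0.79 to -0.58, through BUB3, and that of the cyclins, kinases and regulators from -0.70 to -0.57.

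**Figure D3:**
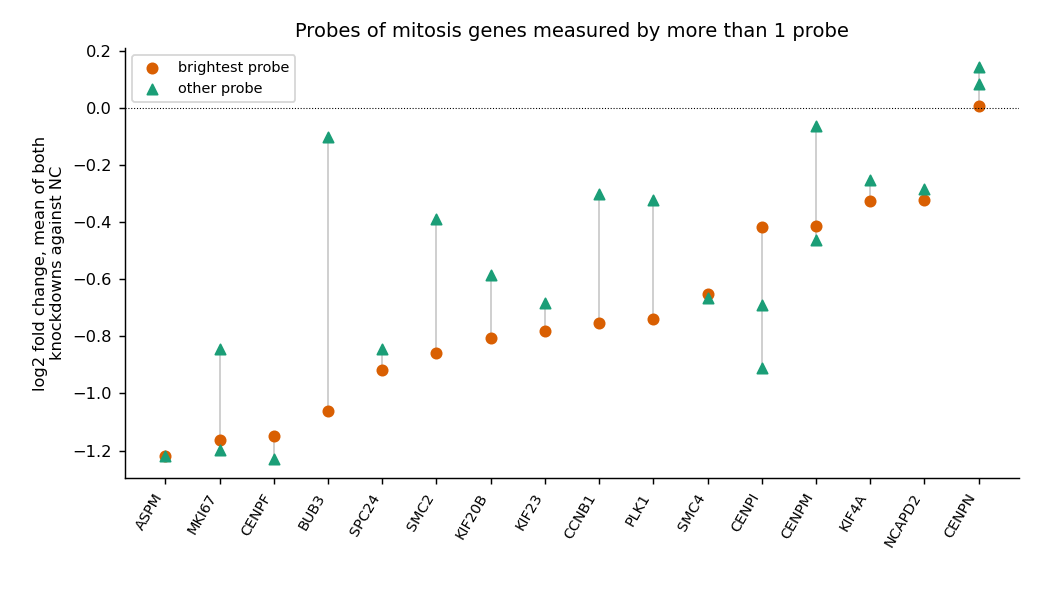
Mean log2 fold change of both knockdowns against NC for each probe of the 16 mitosis genes with several probes well above background on all arrays, brightest probe as a circle and others as triangles, 1 array per condition. BUB3 has the widest gap, -1.06 against -0.10, and the probes of CENPN all lie at or above 0.

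Other genes of mitosis, 82 in all, were less uniform. In SMARCA4-KD1, 26 of them were at least 1.5-fold lower and 4 higher, in SMARCA4-KD2 27 and 4, and in the mean 27 and 3. The matching shares of all genes were 12.2% and 11.2%, 9.77% and 10.1%, and 10.4% and 9.94%. The median mean change of the 82 genes was -0.33. The 3 further genes of the spindle checkpoint did not follow those on the list. Their mean changes had a median of 0.19 and ran from -0.06 to 0.21, with 0 at least 1.5-fold lower and 0 higher. The spindle genes among the 82 were near the 60 genes, with 7 of 10 at least 1.5-fold lower and a median of -0.77. They included TACC3 (-1.18), GTSE1 (-1.17) and CKAP2 (-1.03). KIF22, the only kinesin in this group, had -0.49 and was not 1.5-fold lower. The 15 genes of the anaphase promoting complex and its regulators had a median of 0.09. Of them 1 was lower, FBXO5 (-0.71), and 1 higher, FZR1 (0.67), a co-activator like CDC20. In each direction, 1 of 15 is no more than the share of all genes.

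The centromere genes outside the list ranged from far below NC to above it. HJURP, the chaperone that loads CENPA, had intensities of 4129, 4630 and 11876 and a mean change of -1.50. MIS18A, which primes the centromere for that loading, had 1622, 1426 and 3961 and -1.44. CENPB, CENPC and CENPP had -1.47, -1.12 and -1.06. In all, 6 of 13 inner kinetochore genes were at least 1.5-fold lower in the mean, where 10.4% of all genes were. CENPL, of the same group, had intensities of 232, 138 and 143 and changes of 0.61 and -0.08, so that it was at least 1.5-fold higher in SMARCA4-KD1 and not in SMARCA4-KD2. Of 13 outer kinetochore and linker genes 3 were at least 1.5-fold lower in the mean, ZWINT (-1.31) and CASC5 (KNL1, -1.05) among them. ZW10, a dynein recruiter, was higher (0.76). SMC1A of cohesin had -1.08, BORA, an activator of AURKA, -1.06, and CIT, the citron kinase of the midbody, -1.62. CDC25A, a phosphatase that also acts in S phase, was higher at 0.73. ZW10, FZR1 and CDC25A were named after their values were seen, as the 3 higher in the mean, and so were FBXO5, CENPL and KIF22.

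**Figure D4:**
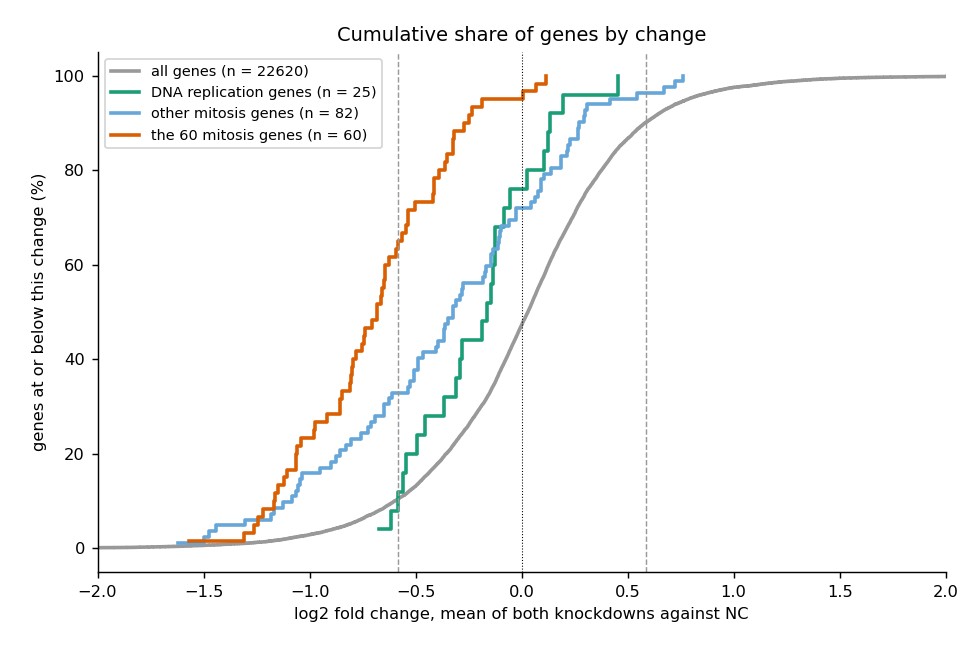
Cumulative share of genes (%) by mean log2 fold change of both knockdowns against NC for the 60 mitosis genes (orange), 82 other mitosis genes (blue), 25 DNA replication genes (green) and all 22620 genes (grey), with dashed lines at 1.5-fold, from 1 array per condition. The medians are -0.68, -0.33, -0.16 and 0.03.

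The 25 DNA replication genes, which act earlier in the cell cycle, had a median mean change of -0.16. In the mean, 2 of the 25 were at least 1.5-fold lower, no more than the 10.4% share of all genes. They were MCM5 (-0.67) and CDC45 (-0.62), both named after their values were seen. Among the 7 genes of the MuvB complex with MYBL2 and FOXM1, 2 were at least 1.5-fold lower in the mean, where 10.4% of all genes were. FOXM1, the forkhead activator of G2 and M genes, had intensities of 710, 864 and 1987 and a mean change of -1.40. MYBL2, the Myb factor that joins MuvB, had 181, 180 and 614 and -1.82. LIN54, the subunit that binds the CHR element of promoters, had 604, 572 and 748 and -0.40, and the other 4 lay between -0.26 and 0.08.

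Since LIN54 recognises the CHR element and NF-Y the CCAAT box, both were searched in the promoters of the mitosis genes. The RefSeq promoter table (GRCh38.p14) holds 250 bases before and 50 after each start. It matched 53 of the 60 genes with 65 promoters, and BIRC5, TTK, AURKA, CENPH, TPX2, CENPM and BUB3 were not matched. The motifs were TTTGAA or TTCGAA for the CHR and CCAAT for the box, on both strands, and in 2 promoters the matches overlapped. A CHR match was found in 45 of the 65 promoters (69.2%), against 16.4% of all 35116 promoters in the table. A CCAAT match was found in 46 (70.8%), against 34.6%, and both in 35 (53.8%), against 6.38%. By distance, the CCAAT matches were most frequent 75 to 50 bases before the start, in 40% of these promoters against 7.62% of all, and the CHR matches in the last 50 bases before the start, with 20% in each 25-base step against 1.51% and 1.26%, and 18.5% in the step after the start against 1.43%.

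A CHR match was held by 29 of 44 promoters (65.9%) of genes at least 1.5-fold lower in the mean and by 16 of 21 (76.2%) of the others, and a CCAAT match by 33 (75%) and 13 (61.9%), with no test. The stretches below, from 120 bases before to 15 after the start on the strand of the gene, come from both ends of the list and were chosen by change and motif content, so they are examples only. Capitals mark CHR and CCAAT matches on either strand.

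The first 4 belong to genes at least 2-fold lower in the mean that hold both motifs in the stretch. In order they lie at chr12:6851272-6851406, chr5:138331790-138331924, chr2:168890416-168890550 and chr11:62123891-62124025 (GRCh38.p14), and of the several starts of CDC25C the one with both motifs is shown.
CDCA3: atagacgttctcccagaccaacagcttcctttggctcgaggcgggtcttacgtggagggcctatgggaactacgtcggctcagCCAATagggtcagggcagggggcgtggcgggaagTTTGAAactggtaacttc
CDC25C: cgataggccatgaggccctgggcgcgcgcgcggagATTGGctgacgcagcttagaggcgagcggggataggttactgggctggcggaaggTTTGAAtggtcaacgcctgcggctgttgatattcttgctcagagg
SPC25: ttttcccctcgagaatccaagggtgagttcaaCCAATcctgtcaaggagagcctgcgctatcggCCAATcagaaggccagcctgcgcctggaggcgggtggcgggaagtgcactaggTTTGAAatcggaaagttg
INCENP: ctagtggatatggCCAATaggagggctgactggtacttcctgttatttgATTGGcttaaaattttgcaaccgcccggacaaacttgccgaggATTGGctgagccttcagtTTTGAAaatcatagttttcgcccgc

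CENPE and NUF2 were also at least 2-fold lower in the mean, with no match of either kind in the printed stretches, at chr4:103198329-103198463 and chr1:163321834-163321968. The searched promoter of NUF2 extends past its stretch and holds a CHR match 17 bases after the start, so NUF2 is among those counted above. No match says only that these letters are not in the stretch.
CENPE: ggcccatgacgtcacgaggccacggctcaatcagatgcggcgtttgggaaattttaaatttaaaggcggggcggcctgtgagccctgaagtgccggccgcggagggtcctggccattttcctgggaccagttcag
NUF2: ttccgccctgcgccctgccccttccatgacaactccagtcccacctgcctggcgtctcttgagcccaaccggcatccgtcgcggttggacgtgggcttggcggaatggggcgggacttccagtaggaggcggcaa

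CDC20, CENPK and CENPN were the 3 genes not lower in the mean. CDC20 and CENPN hold both motifs, and CENPK holds CCAAT matches alone, at chr1:43358861-43358995, chr5:65563154-65563288 and chr16:81007094-81007228.
CDC20: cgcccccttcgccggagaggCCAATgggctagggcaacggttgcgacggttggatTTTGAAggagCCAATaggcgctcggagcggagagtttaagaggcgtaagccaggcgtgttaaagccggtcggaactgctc
CENPK: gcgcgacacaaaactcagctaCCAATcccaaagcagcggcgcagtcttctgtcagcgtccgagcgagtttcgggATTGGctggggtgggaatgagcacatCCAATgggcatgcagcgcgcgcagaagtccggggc
CENPN: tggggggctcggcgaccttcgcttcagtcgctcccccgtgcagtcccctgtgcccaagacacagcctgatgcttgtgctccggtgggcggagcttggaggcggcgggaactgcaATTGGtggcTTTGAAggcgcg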

How the data were processed

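Total RNA was converted through cDNA into Cy3-labelled cRNA, which was hybridised to 60-mer arrays. The authors deposited scanner files whose intensity values were extracted, background-subtracted and detrended with Agilent Feature Extraction 10.7.1.1 (per the submitters' processing notes), with no normalization between arrays, and a series-level table of the same intensity values, equal for all mitosis probes. Control and outlier spots were left out, repeated spots averaged, and log2 intensity taken relative to the 75th percentile. Gene names and hg19 positions come from the array files, and exons or untranslated regions were not looked up. Counts used the 1.5-fold threshold of the methods. Their p threshold needs replicates. limma 3.58.1 (R 4.3.3) was fitted with a trend, and its code was tested on simulated data. There NC varied as the knockdown arrays did and no slide effect was set, so the simulation cannot check those assumptions. Python 3.11.15, pandas 2.3.3 and matplotlib 3.10.9 did the rest. Alternatives were other scalings, background correction, filters, floor, probe averaging, the series-level table, 2-fold and limma without trend. Genes named are those at least 2-fold apart, the extremes of each sub-function, those differing most between knockdowns or probes, and the known regulators, and the remaining mitosis genes were given as complete groups. Members and lists were chosen with earlier results of these data known. The siRNA sequences are not reported here.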

Additional observations from a re-analysis of the deposited data

How the results depend on the processing

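Signal over background limited the dim genes KIF18B, NCAPH and CENPI. No paired analysis was possible because each condition has 1 array. Scaled to the spike-ins (chosen after seeing the data), the medians of the mitosis genes were -0.43 and -0.37 in the knockdowns and -0.37 in the mean, with 17 and 16 genes at least 1.5-fold lower and 33 lower and 3 higher by limma's unadjusted p (5.37% and 37% of all genes). In the same setting the sub-function medians were -0.62 (proliferation markers), -0.39 (cyclins and kinases), -0.48 (checkpoint), -0.28 (passenger complex), -0.30 (kinetochore), -0.35 (kinesins), -0.46 (spindle assembly and cytokinesis), -0.43 (cohesion) and -0.34 (condensin). At 2-fold, 15 and 14 genes were lower. Quantile normalization gave -0.77 for kinesins, -0.87 for spindle assembly and cytokinesis and -0.86 for cohesion, averaging over probes -0.57 for cyclins and kinases and -0.58 for the checkpoint, and normexp -0.42 for condensin. Benjamini-Hochberg adjustment left 0 limma calls, but 43 with quantile normalization (11.7% of all genes called), 43 with normexp (15.9%), 48 with a filter on all arrays (26.5%), 53 with no filter (66%), 42 with no floor (14.8%), 43 with the series-level table (16%) and 23 with spike-in scaling (23.5%). The cause was not tested. Of 169 comparisons of group results with an alternative, 145 stayed within 1.5 times the count or 0.1 of the median, and 24 moved. Counts of 0 that stayed at 0 are among the 145. Also among them are fold counts and medians that could hardly move. The series-level table holds the same intensities for all mitosis probes. The floor and the filter on dim probes bear little on these genes, as 59 of 60 were well above background on all arrays. None (0) of the medians changed sign, which a count cannot do.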
